A study of Mus musculus with 54 samples.

Results

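The Id proteins and the basic helix-loop-helix (bHLH) partners of MyoD were followed through 10 mouse genes. They were the inhibitor genes Id1, Id2, Id3 and Id4, the E protein genes Tcf3, Tcf4 and Tcf12, and the repressor genes Twist1, Twist2 and Msc. The genes were chosen by name and were found in the tables through their NCBI gene numbers, out of 19653 genes listed in at least 1 of 27 deposited tables. MyoD and its relatives are transcription factors that bind E-box DNA as dimers with an E protein, and the E proteins are encoded by Tcf3 (E12 and E47), Tcf4 (E2-2) and Tcf12 (HEB). Id proteins have the dimer interface but no basic region to bind DNA, so an E protein held by an Id protein is kept from MyoD. Twist proteins and musculin, the product of Msc, are bHLH proteins that pair with E proteins and can hold back muscle genes. In growing myoblasts Id transcripts are abundant, and their loss is a known step of differentiation after serum withdrawal.

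The cells were H2K myogenic progenitors, conditionally immortal mouse muscle precursors that are expanded in γ-interferon. In total, 6 lines were compared: wildtype, EMD -/y, which lacks the X-linked gene for the nuclear envelope protein emerin, and EMD -/y progenitors transduced by lentivirus with wildtype emerin (+EMD) or with emerin carrying the muscular dystrophy mutations S54F, Δ95–99 or Q133H. RNA was collected at 0, 24 and 48 h of differentiation in horse serum (days 0, 1 and 2), which gave 18 groups with 3 labelled replicates each and 54 samples. By the methods, the switch after day 0 changed the serum, left out γ-interferon and chick embryo extract, and changed temperature and carbon dioxide. These parts of the switch cannot be told apart. Polyadenylated RNA was sequenced, and the comparisons asked how each line differed from wildtype on the same day and how each line differed between consecutive days. Each genotype was represented by 1 line. The transduced lines were selected in puromycin at doses that differed between lines, and the labels give puromycin in the differentiation medium for the mutants. The mutant lines were plated more densely than wildtype and EMD -/y progenitors, and the methods for RNA collection do not name the density of +EMD, so the emerin form, the transduction, the drug and, for the mutants, the plating cannot be told apart in these lines. The protocol gave technical replicates within biological replicates, and which of these a labelled replicate was is not given for each sample.

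Each deposited table held the authors' mean normalized count of a gene in 2 groups, 15 tables for a line against wildtype on the same day and 12 for a line on consecutive days. The tables held no values for single samples, so the spread between replicates is unknown, no test across samples was run, and no replicate could be left out. The means of a group in a table summed to between 16719491 and 21128040 over all genes. The tables had been normalized separately, so the level of a gene in a group is given as the median of its means over the tables holding that group. The span of those means was 5.45 to 9.29% of the level in the median group, depending on the member, and at most 21.5% with Msc set aside, and it differed between genes of a group. This range reflects the separate normalization, not counting or replicate error. Ranges that do not overlap therefore do not establish an order of lines. Ratios were taken within 1 table. Going round the 4 tables that link a line, wildtype and 2 consecutive days, the ratios of 8 members closed to within 0.04 log2 units over 80 loops. Those of Id4, a rare transcript, closed to within 0.17 over 10, and Msc was left out. A 95% counting interval was taken for each ratio by the exact binomial (Clopper-Pearson) method on 3 times each mean. Over the 196 member ratios with both means at 100 or more, its half-width had a median of 0.05 and reached 0.21 log2 units. These intervals cover counting error only, not the spread between replicates.

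Emd, the targeted gene, was read first. Its mean lay between 987 and 1962 in the wildtype columns. In EMD -/y columns it lay between 0.457 and 3.52, and in the transduced lines between 0.141 and 2.67. The mouse transcript was therefore near 0 in all 5 lines that derive from EMD -/y progenitors, also in +EMD, and whether these rows count the transduced emerin sequences is not given in the sources used here. All 6 progenitor markers were listed in all 18 groups, with Myod1 between 6545 and 23881. Q133H stood apart in Pax7, the factor of muscle stem cells, which was at 3.31, 6.43 and 8.34 on days 0, 1 and 2 there and at 379, 141 and 52.3 in wildtype. The other 4 lines were higher than wildtype in Pax7 on all 3 days, by log2 ratios of 1.16 to 4.14. Markers of endothelial cells and adipocytes were low. The summed level of 4 endothelial markers was at most 51.9 and that of 3 adipocyte markers at most 11.2, with Kdr and Fabp4 most often the most abundant gene. Adipoq was at most 0.553 and Pecam1 at most 12.96. The remaining lists were less clear-cut. Ptprc, which marks leukocytes, was at most 1.90, although Itgam in the same list of 4 genes reached 248 and the summed immune level 271. Of 6 fibroblast markers, Lum was at most 0.497 and Dcn at most 51.8, while Col3a1 was the most abundant in all 18 groups and the summed level ran from 9132 to 43559. Col1a1 reached 19131. The 4 smooth muscle and pericyte markers summed to 16120 to 92716, nearly all of it Acta2, an actin that myoblasts also make. In the same list Cspg4 reached 1142 and Rgs5 172, while Myh11 was at most 24.5.

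The lines also differed from wildtype in rows that carry no NCBI number. Predicted genes, a split made after the data were seen, were past 2-fold in 28.1 to 56.8% of those with a mean of at least 10 in the 15 comparisons with wildtype, against 6.43 to 32.7% of the numbered genes. Between days the shares were 13.2 to 49.9% and 11.0 to 21.9%. Q133H, Δ95–99 and +EMD differed from wildtype in more genes than EMD -/y and S54F on each day, so the count of members is given beside the share over all genes in every comparison.

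Id2 was higher than wildtype in all 5 lines on all 3 days. Id1 and Id3 were near wildtype on day 0 in all lines, were lower in each line on day 1 than on day 0, and on day 2 were past 2-fold above wildtype in Δ95–99, Q133H, +EMD and S54F. Twist2 and Id4 had the same order on day 2, with Q133H highest. By the largest ratio to wildtype over the 3 days, the E protein transcripts differed less than the Id and Twist transcripts. On days 0 and 1, however, Id1 stayed closer to wildtype than they did. On day 1 its log2 ratios lay between −0.41 and 0.39, while Tcf4 reached −0.89, Tcf3 0.83 and Tcf12 −0.71. In bulk RNA, more cells holding a transcript and more of it per cell cannot be told apart. A ratio is called past 2-fold where it was at least 2 in either direction and the higher mean was at least 10. In the comparisons with wildtype, 148 of 150 pairs of a member and a comparison were listed and 134 reached the minimum. Of these, 44 were past 2-fold, 43 higher and 1 lower than wildtype. Id4 on day 2 reached the minimum only through the lines, so its pairs there could only be higher. By day there were 7 of 45 on day 0, 15 of 45 on day 1 and 22 of 44 on day 2. Over all genes, 16.5% of pairs were past 2-fold, at 13.3% on day 0, 17.3% on day 1 and 18.95% on day 2. The members' share on day 0 was near that of all genes. All 5 lines were set against the same wildtype libraries, so these counts are not independent.

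In EMD -/y, 2 of 9 members against 9.12% of 13370 genes were past 2-fold on day 0 (Id2 and Id4), 2 of 9 members against 7.68% of 13394 genes on day 1 (Id2 and Id4) and 0 of 8 members against 7.98% of 13163 genes on day 2. In S54F, 2 of 9 members against 12.3% of 13354 genes were past 2-fold on day 0 (Id2 and Id4), 3 of 9 members against 12.5% of 13462 genes on day 1 (Id2, Id4 and Twist2) and 4 of 9 members against 11.1% of 13229 genes on day 2 (Id1, Id2, Id3 and Twist2). In Δ95–99, 0 of 9 members against 12.7% of 13355 genes were past 2-fold on day 0, 2 of 9 members against 21.3% of 13519 genes on day 1 (Id2 and Twist2) and 5 of 9 members against 22.5% of 13453 genes on day 2 (Id1, Id2, Id3, Id4 and Twist2). The members' share was thus above the share over all genes on day 2 in S54F and Δ95–99, but not on day 0 in Δ95–99 or on day 2 in EMD -/y. In Q133H, 1 of 9 members against 15.1% of 13373 genes were past 2-fold on day 0 (Id4), 5 of 9 members against 24.6% of 13516 genes on day 1 (Id2, Id3, Id4, Twist1 and Twist2) and 6 of 9 members against 33.9% of 13593 genes on day 2 (Id1, Id2, Id3, Id4, Twist1 and Twist2). In +EMD, 2 of 9 members against 17.3% of 13278 genes were past 2-fold on day 0 (Id2 and Twist2), 3 of 9 members against 20.1% of 13482 genes on day 1 (Id2, Id4 and Twist2) and 7 of 9 members against 18.8% of 13359 genes on day 2 (Id1, Id2, Id3, Id4, Tcf3, Twist1 and Twist2). The Id genes and Twist2 thus made up most of the ratios past 2-fold. The single ratio past 2-fold in the lower direction was Twist1 in +EMD on day 2. Over all genes the directions were more even, with 2477 genes higher and 2125 lower in Q133H and 1461 higher and 1044 lower in +EMD on day 2. On day 0 in Q133H and +EMD and on day 1 in Δ95–99 the share of members was close to that of all genes. The median log2 ratio of all genes at the minimum was between −0.02 and 0.02 in all 27 tables, and dividing the means by their sums instead would move all ratios of a table by −0.27 to 0.25 log2 units.

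**Figure D1:**
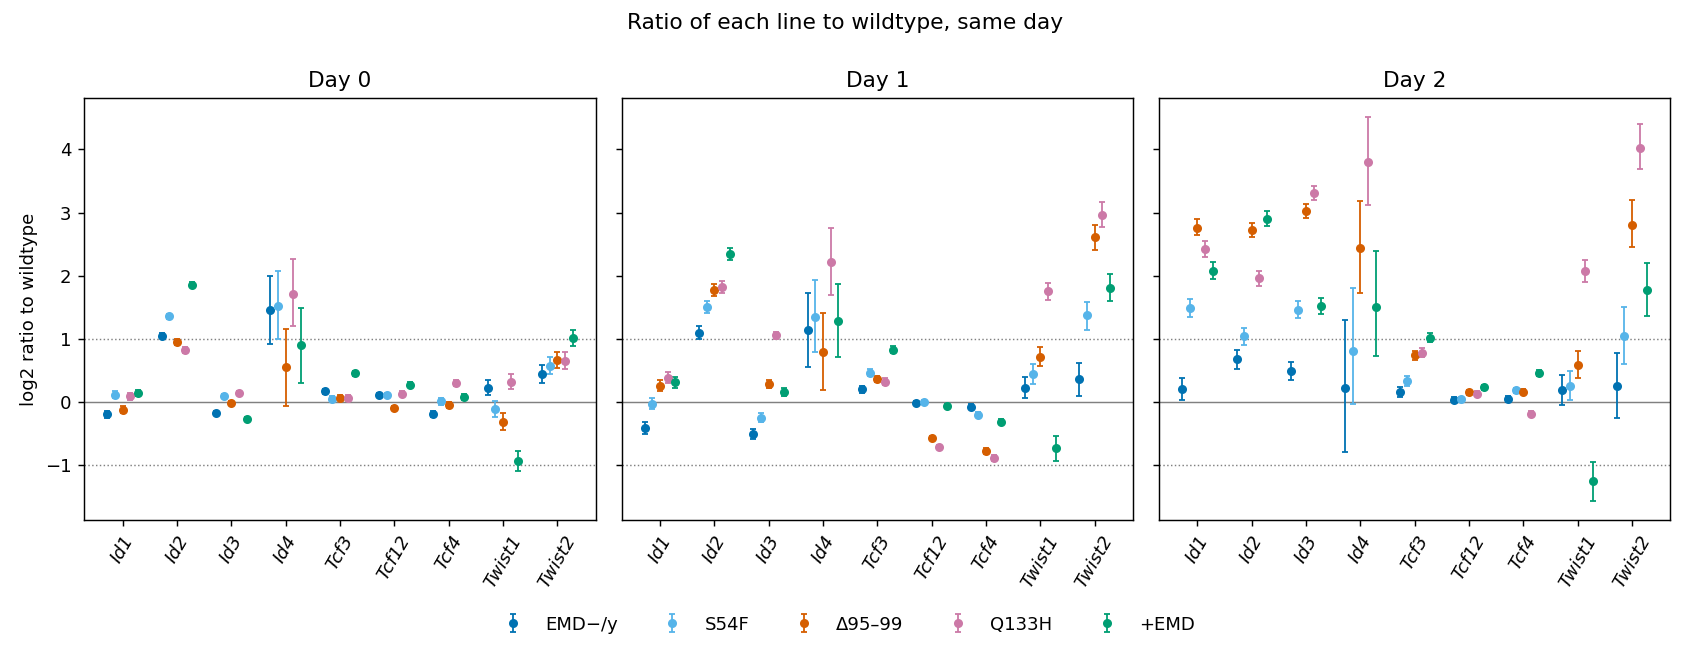
The log2 ratio of each line to wildtype for 9 members on days 0, 1 and 2, with dotted lines at 2-fold. Bars are 95% counting intervals, which leave out replicate error; on day 2 Id1, Id2, Id3 and Twist2 lie above wildtype in all 5 lines, Tcf4 lies between −0.18 and 0.46 and Tcf12 between 0.04 and 0.23.

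Between consecutive days, 34 of 108 pairs at the minimum were past 2-fold, all of them lower at the later day: 20 of 54 from day 0 to day 1 and 14 of 54 from day 1 to day 2. Each large difference between days was thus a lower level later on. In wildtype, 4 of 9 members against 23.3% of 13432 genes were past 2-fold between days 0 and 1 (Id1, Id2, Id3 and Twist2) and 3 of 9 members against 20.3% of 13268 genes between days 1 and 2 (Id1, Id3 and Twist2). In EMD -/y, 4 of 9 members against 21.9% of 13576 genes were past 2-fold between days 0 and 1 (Id1, Id2, Id3 and Twist2) and 4 of 9 members against 19.2% of 13349 genes between days 1 and 2 (Id2, Id3, Id4 and Twist2). In S54F, 3 of 9 members against 17.1% of 13406 genes were past 2-fold between days 0 and 1 (Id1, Id2 and Id3) and 4 of 9 members against 21% of 13336 genes between days 1 and 2 (Id2, Id4, Tcf3 and Twist2). Id1, Id2 and Id3 were past 2-fold from day 0 to day 1 in these and in the remaining lines, and the lines parted over the following day. In Δ95–99, 3 of 9 members against 14.5% of 13315 genes were past 2-fold between days 0 and 1 (Id1, Id2 and Id3) and 1 of 9 members against 14.7% of 13363 genes between days 1 and 2 (Twist2). In Q133H, 3 of 9 members against 12.6% of 13118 genes were past 2-fold between days 0 and 1 (Id1, Id2 and Id3) and 0 of 9 members against 11.1% of 13119 genes between days 1 and 2. In +EMD, 3 of 9 members against 17.8% of 13182 genes were past 2-fold between days 0 and 1 (Id1, Id2 and Id3) and 2 of 9 members against 21.1% of 13301 genes between days 1 and 2 (Twist1 and Twist2). From day 1 to day 2 the members' share was near or below that of all genes in Δ95–99, Q133H and +EMD. Among all genes, 1708 were higher and 1419 lower in wildtype from day 0 to day 1. From day 1 to day 2 they leaned lower there, with 1080 higher and 1618 lower, and also in EMD -/y (1042 and 1524) and S54F (1272 and 1526), while in Δ95–99, Q133H and +EMD more genes were higher than lower.

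Id2 encodes an inhibitor that binds the retinoblastoma protein as well as E proteins. Its gene lies at chr12:25093799-25096092 (GRCm38). On day 0, Id2 was at 7025 in +EMD, 4975 in S54F, 3978 in EMD -/y, 3839 in Δ95–99, 3481 in Q133H and 1920.1 in wildtype. On day 1, Id2 was at 1990.4 in +EMD, 1501 in Q133H, 1416 in Δ95–99, 1112 in S54F, 799 in EMD -/y and 391 in wildtype. On day 2, Id2 was at 1791 in +EMD, 1702 in Δ95–99, 1021 in Q133H, 481 in S54F, 355 in EMD -/y and 229.9 in wildtype. Wildtype was lowest and +EMD highest on each day. The ranges over tables did not overlap between neighbours in the order on day 0, and overlapped only between Q133H and Δ95–99 on day 1 and between +EMD and Δ95–99 on day 2. The log2 ratio to wildtype was lowest in EMD -/y on day 2, at 0.67 (counting interval 0.53 to 0.82), and highest in +EMD on day 2, at 2.90 (2.78 to 3.02), a 7.46-fold difference. It was past 2-fold in 12 of 15 comparisons. The 3 below 2-fold were EMD -/y on day 2 and Δ95–99 and Q133H on day 0, at 0.95 and 0.82 for the latter pair. The higher Id2 level was thus present before the switch to differentiation medium as well as after it. From day 0 to day 1, Id2 was lower in all 6 lines, from 4.85-fold lower in wildtype to 2.36-fold lower in Q133H. From day 1 to day 2 the log2 ratio was −0.01 in +EMD, −0.46 in Q133H, 0.36 in Δ95–99, −1.04 in S54F, −1.0 in EMD -/y and −0.58 in wildtype. Δ95–99 alone had more Id2 on day 2 than on day 1. The EMD -/y value sat at the 2-fold line and crossed it with a pseudocount of 1 and with centring on the median.

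Id1 and Id3 are the Id genes most directly driven by BMP signalling through Smad proteins, and both proteins sequester E proteins. Id1 lies at chr2:152736251-152737410 and Id3 at chr4:136143822-136145392. On day 0, Id1 was at 2272 in +EMD, 2241 in Q133H, 2236 in S54F, 2037 in wildtype, 1942 in Δ95–99 and 1764 in EMD -/y. On day 1, Id1 was at 938 in Q133H, 832 in Δ95–99, 817 in +EMD, 658 in wildtype, 647 in S54F and 470.0 in EMD -/y. On day 2, Id1 was at 1429 in Δ95–99, 1164 in Q133H, 826 in +EMD, 543 in S54F, 208 in EMD -/y and 189 in wildtype. The lines lay close together on day 0, where the ranges of +EMD and Q133H and of Q133H and S54F overlapped. On day 1 Δ95–99 overlapped +EMD and wildtype overlapped S54F. The lines spread out on day 2, where only EMD -/y and wildtype overlapped. On day 0, Id3 was at 5449 in Q133H, 5165 in S54F, 4875 in Δ95–99, 4751 in wildtype, 4156 in EMD -/y and 3968 in +EMD. On day 1, Id3 was at 2697 in Q133H, 1525 in Δ95–99, 1330.4 in +EMD, 1189.8 in wildtype, 1004 in S54F and 794 in EMD -/y. On day 2, Id3 was at 2668 in Q133H, 2124 in Δ95–99, 698 in +EMD, 657 in S54F, 316 in EMD -/y and 234 in wildtype. Q133H had the highest Id3 level on all 3 days. Neighbours overlapped only between Δ95–99 and wildtype on day 0 and between +EMD and S54F on day 2.

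Relative to wildtype, Id1 on day 0 had log2 ratios between −0.19 and 0.14, and Id3 between −0.27 and 0.15. On day 1 Id1 was between −0.41 in EMD -/y and 0.39 in Q133H. Id3 on day 1 was −0.51 in EMD -/y and 1.05 in Q133H, the latter with a counting interval of 1.0 to 1.11. EMD -/y progenitors were therefore somewhat below wildtype in both genes on day 1, and Q133H was above it. On day 2 the Id1 ratio was 2.08 in +EMD, 2.43 in Q133H, 2.76 in Δ95–99, 1.49 in S54F and 0.20 in EMD -/y. For Id3 it was 1.53 in +EMD, 3.31 in Q133H, 3.03 in Δ95–99, 1.46 in S54F and 0.49 in EMD -/y. The counting intervals of the largest of each, Id1 in Δ95–99 and Id3 in Q133H, were 2.64 to 2.89 and 3.20 to 3.42. In fold terms, Id3 in Q133H on day 2 was 9.91 times its wildtype mean and Id1 in Δ95–99 was 6.78 times. The day 2 difference came with a different course from day 1. In wildtype, Id1 and Id3 were 3.05-fold and 4.46-fold lower on day 2 than on day 1. In EMD -/y progenitors their log2 ratios over that day were −1.0 (just short of 2-fold) and −1.14, and in S54F −0.09 and −0.44. Δ95–99 went the other way, with more of both on day 2 than on day 1, at 0.87 for Id1 and 0.57 for Id3. Q133H gave 0.40 and 0.08. In +EMD the values were 0.15 and −0.78, of which the Id1 value turned negative when means were divided by their sums. The same division took Id3 in +EMD to −1.02 and Id1 in EMD -/y to −1.23, both past 2-fold.

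Id4 was the rarest Id gene. It lies at chr13:48261116-48266028, and its product is an Id family member with roles best known from neural cells. On day 0, Id4 was at 45.3 in Q133H, 39.2 in S54F, 37.4 in EMD -/y, 24.7 in +EMD, 20.1 in Δ95–99 and 13.3 in wildtype. On day 1, Id4 was at 62.0 in Q133H, 32.2 in S54F, 30.0 in +EMD, 27 in EMD -/y, 22.5 in Δ95–99 and 12.3 in wildtype. On day 2, Id4 was at 97.0 in Q133H, 38.3 in Δ95–99, 18.9 in +EMD, 11.3 in S54F, 6.92 in EMD -/y and 6.09 in wildtype. Wildtype was lowest and Q133H highest on every day, and the ranges over tables overlapped only for S54F and +EMD on day 1 and EMD -/y and wildtype on day 2. At such low counts these ranges leave out most of the error, so neighbours in the order cannot be told apart by them. Id4 reached the minimum in 14 of 15 comparisons with wildtype, was higher than wildtype in all 14, and was past 2-fold in 10. On day 2 its wildtype mean was 5.34 to 6.58, below the minimum of 10. A pair could then reach the minimum only through the line, so its direction on that day was fixed in advance. The counting intervals of Δ95–99 on day 0 (−0.07 to 1.15) and S54F on day 2 (−0.03 to 1.81) held 0. In Q133H on day 2 the log2 ratio was 3.79, with a counting interval of 3.12 to 4.51 that is wide because wildtype was so low. At these counts the size of the ratios is less certain than for the other Id genes. Between days, Id4 was past 2-fold only from day 1 to day 2 in EMD -/y (−1.72) and S54F (−1.29).

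**Figure D2:**
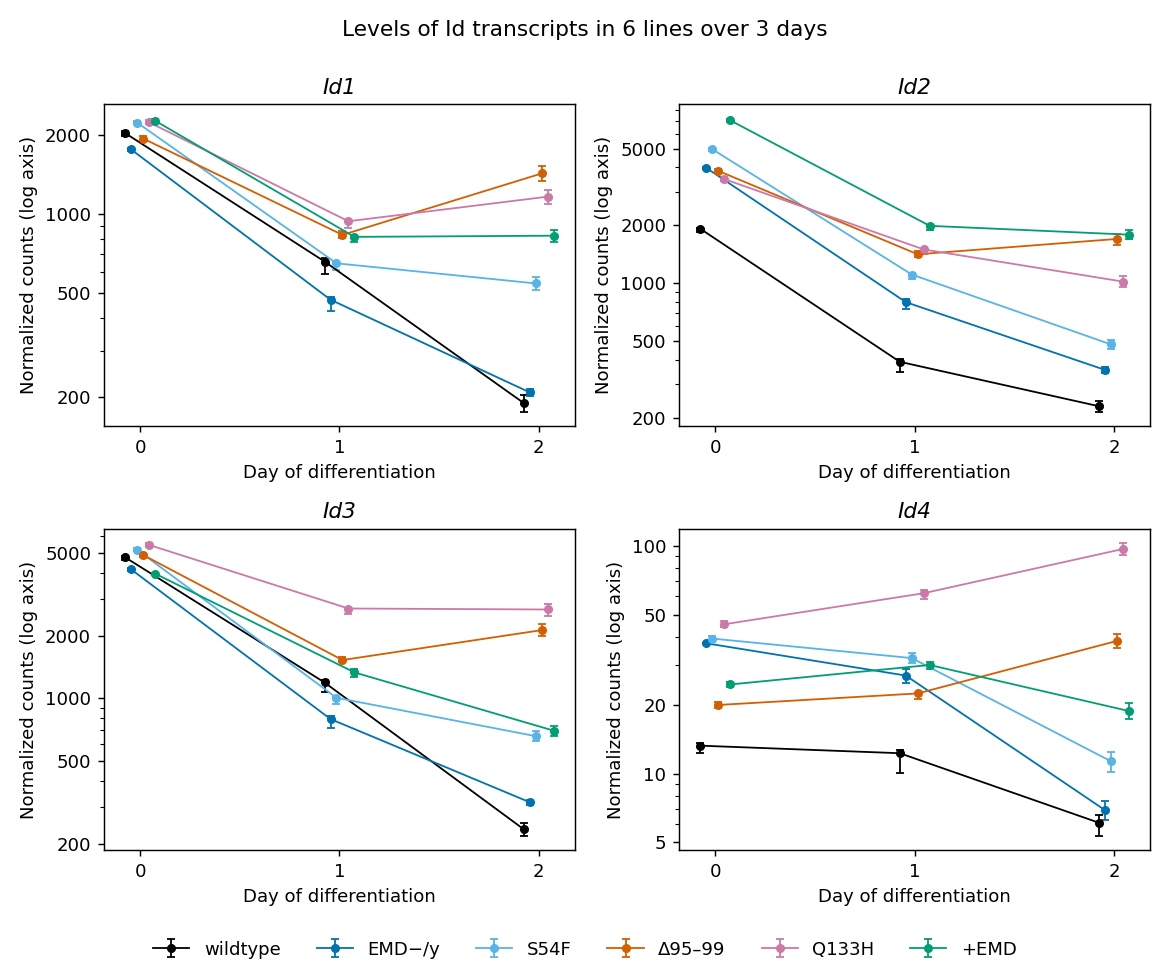
Levels of Id1, Id2, Id3 and Id4 in the 6 lines on days 0, 1 and 2, in normalized counts on log axes. Points are medians of the authors' group means over the tables holding the group, and bars run from the lowest to the highest table, which is not replicate error; wildtype (black) is lowest for all 4 genes on day 2.

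Per kilobase of transcript length, Id3 was the most abundant Id transcript in 15 of 18 groups and Id2 in the 3 +EMD groups. The 4 Id genes summed to 8605 normalized counts per kilobase in wildtype on day 0, of which Id1, Id2 and Id3 made up 25.3, 17.3 and 57.3%. In +EMD on day 0 the same genes made up 20.2, 45.4 and 34.3% of 12011. Id3 was thus the largest part of the Id pool in wildtype, and Id2 in +EMD. On day 2 the Id sum was 3008 in +EMD, 4863 in Q133H, 5075 in Δ95–99, 1642 in S54F, 829.9 in EMD -/y and 627 in wildtype. Id4 was at most 1.20% of the sum in any group.

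The E proteins are the partners that MyoD needs to bind E-boxes. Tcf3 lies at chr10:80409541-80433976. On day 0, Tcf3 was at 4274 in +EMD, 3439.8 in EMD -/y, 3353 in Δ95–99, 3328 in Q133H, 3235 in S54F and 3081 in wildtype. On day 1, Tcf3 was at 3036 in +EMD, 2356 in S54F, 2307 in Δ95–99, 2300.4 in Q133H, 1871 in EMD -/y and 1706 in wildtype. On day 2, Tcf3 was at 1696 in +EMD, 1589 in Q133H, 1513 in Δ95–99, 1040.3 in S54F, 873 in EMD -/y and 810.4 in wildtype. Tcf3 was lower on each later day in all 6 lines, +EMD was highest throughout and wildtype lowest. On day 0 each neighbour from EMD -/y down to S54F overlapped the next. On day 1 this held from S54F to Q133H and on day 2 from +EMD to Δ95–99, and EMD -/y overlapped wildtype on both of these days. All 15 log2 ratios to wildtype were above 0, from 0.05 to 1.02. Only +EMD on day 2 was past 2-fold (1.02, counting interval 0.94 to 1.09), and this value sits at the 2-fold line. Between days Tcf3 was past 2-fold in S54F, from day 1 to day 2 (−1.02). With means divided by their sums, wildtype (−1.09) and EMD -/y (−1.17) were past it as well over that day, and so was Q133H against wildtype on day 2 (1.03).

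Tcf12 lies at chr9:71844252-72111893 and encodes HEB, an E protein used by MyoD in myoblasts. On day 0, Tcf12 was at 5544 in +EMD, 5139.5 in Q133H, 4944 in S54F, 4853 in EMD -/y, 4528 in wildtype and 4400.1 in Δ95–99. On day 1, Tcf12 was at 6116 in S54F, 6100.3 in wildtype, 5835 in +EMD, 5772 in EMD -/y, 4326 in Δ95–99 and 4034 in Q133H. On day 2, Tcf12 was at 4824 in Q133H, 4785 in Δ95–99, 4688 in +EMD, 4055 in S54F, 3859.6 in wildtype and 3813 in EMD -/y. Tcf12 had the smallest span of levels of all members. Its ranges overlapped between S54F and EMD -/y and between wildtype and Δ95–99 on day 0, along the chain from S54F to EMD -/y on day 1, and on day 2 along the chain from Q133H to +EMD and that from S54F to EMD -/y. On day 0, Tcf4 was at 2691 in Q133H, 2256 in +EMD, 2151 in S54F, 2119 in Δ95–99, 2110.3 in wildtype and 1836 in EMD -/y. On day 1, Tcf4 was at 3259 in wildtype, 2953 in EMD -/y, 2839 in S54F, 2626 in +EMD, 2006 in Δ95–99 and 1895 in Q133H. On day 2, Tcf4 was at 3901 in +EMD, 3426 in Δ95–99, 3166 in S54F, 2748 in Q133H, 2739 in wildtype and 2729.6 in EMD -/y. Tcf4 overlapped along the chain from S54F to wildtype on day 0 and from wildtype to S54F on day 1. On day 2 it overlapped between Δ95–99 and S54F and along the chain from Q133H to EMD -/y. Neither gene was past 2-fold in any of the 27 comparisons. Their largest differences from wildtype were on day 1, where Tcf4 and Tcf12 had log2 ratios of −0.89 and −0.71 in Q133H and −0.77 and −0.56 in Δ95–99. Wildtype had more of both on day 1 than on day 0, while in Q133H both were lower, and in Δ95–99 Tcf4 was lower and Tcf12 nearly level. The day 2 ratio of Tcf4 in Q133H, −0.18, changed sign when means were divided by their sums, as did both genes in EMD -/y on day 2.

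Per kilobase, Tcf12 was the most abundant E protein transcript in 15 of 18 groups and Tcf3 in the other 3. The share of Tcf3 in the E protein sum went from 42.1% on day 0 to 16.6% on day 2 in wildtype and from 46.0 to 24.4% in +EMD, while that of Tcf4 went from 14.5 to 28.2% and from 12.2 to 28.3%. Set against each other, Id and E protein transcripts had ratios between 3.89 and 4.95 in the 6 lines on day 0 and separated later. This ratio of sums per kilobase was chosen after the data were seen, and it sets transcripts, not proteins, side by side. It was 3.89, 0.977 and 0.424 on days 0, 1 and 2 in wildtype. In EMD -/y it was 3.97, 0.878 and 0.558, and in S54F 4.95, 1.07 and 0.993. Δ95–99 gave 4.47, 1.87 and 2.55. In the first 3 lines the ratio was near or below 1 on day 2, whereas in Δ95–99 it was higher on day 2 than on day 1. Q133H gave 4.31, 2.72 and 2.53, and +EMD 4.28, 1.5 and 1.43.

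**Figure D3:**
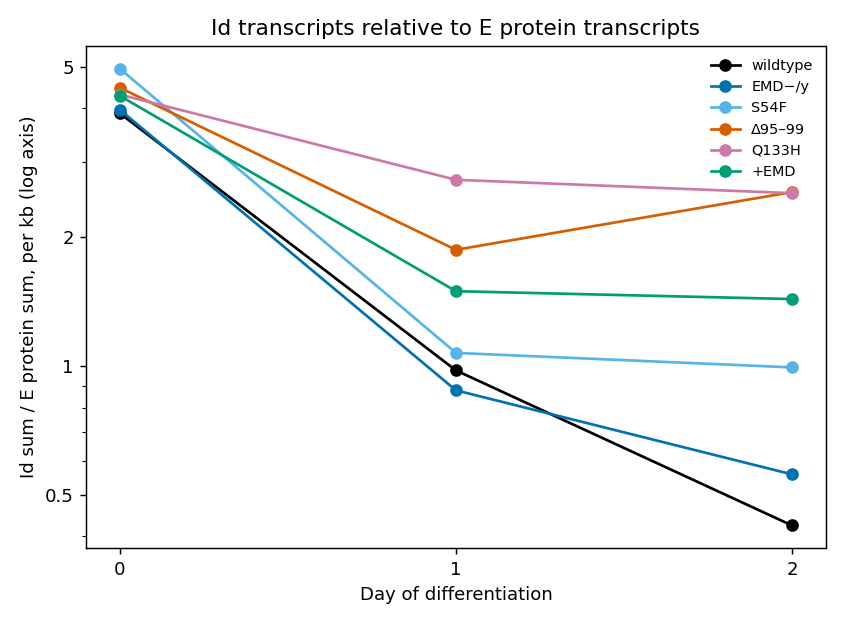
Sum of Id1, Id2, Id3 and Id4 over the sum of Tcf3, Tcf4 and Tcf12, both in normalized counts per kilobase, for 6 lines on days 0, 1 and 2 on a log axis. Each point is 1 group without replicate error; on day 2 Δ95–99 and Q133H lie at 2.55 and 2.53 and wildtype at 0.424.

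Twist1 and Twist2 encode bHLH repressors of mesenchymal cells that can hold MyoD inactive. Twist2 lies at chr1:91801461-91848034 and Twist1 at chr12:33957671-33959831. On day 0, Twist2 was at 515 in +EMD, 415 in Δ95–99, 410.5 in Q133H, 377 in S54F, 339 in EMD -/y and 252 in wildtype. On day 1, Twist2 was at 656 in Q133H, 501 in Δ95–99, 274 in +EMD, 203 in S54F, 95 in EMD -/y and 78.2 in wildtype. On day 2, Twist2 was at 422 in Q133H, 178 in Δ95–99, 79.2 in +EMD, 47.6 in S54F, 25.4 in EMD -/y and 22.1 in wildtype. Wildtype was lowest on each day, and on days 1 and 2 the order was Q133H, Δ95–99, +EMD, S54F, EMD -/y and wildtype, the last 2 overlapping on day 2. Twist2 was higher than wildtype in all 15 comparisons and past 2-fold in 9. The counting interval of EMD -/y on day 2, −0.25 to 0.78, held 0. The largest was Q133H on day 2, at 4.03 (counting interval 3.69 to 4.40), or 16.3-fold. Between days, Twist2 was past 2-fold lower from day 0 to day 1 in wildtype (−1.69) and EMD -/y (−1.75), but was 0.28 in Δ95–99 and 0.64 in Q133H. In the latter pair of lines Twist2 was thus higher on day 1 than before the switch to differentiation medium.

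On day 0, Twist1 was at 441 in Q133H, 395 in EMD -/y, 340.3 in wildtype, 318 in S54F, 284 in Δ95–99 and 179 in +EMD. On day 1, Twist1 was at 687 in Q133H, 325 in Δ95–99, 256 in S54F, 209.9 in EMD -/y, 188 in wildtype and 113 in +EMD. On day 2, Twist1 was at 493 in Q133H, 173 in Δ95–99, 124 in S54F, 112 in EMD -/y, 101 in wildtype and 44.1 in +EMD. Q133H was highest and +EMD lowest on every day, and on days 1 and 2 only EMD -/y and wildtype overlapped. In Q133H the log2 ratio to wildtype was 0.32, 1.76 and 2.07 on days 0, 1 and 2. In +EMD it was −0.93, −0.73 and −1.24, the last with a counting interval of −1.56 to −0.94. Twist1 and Twist2 thus lay on opposite sides of wildtype in +EMD and on the same side in Q133H. Msc, which encodes musculin, was listed in 23 of 27 tables with a level of at most 3.47 in any group, below the minimum of 10 throughout. No ratio is given for it. Per kilobase, Twist2 was the more abundant Twist transcript in 11 groups and Twist1 in 7.

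**Figure D4:**
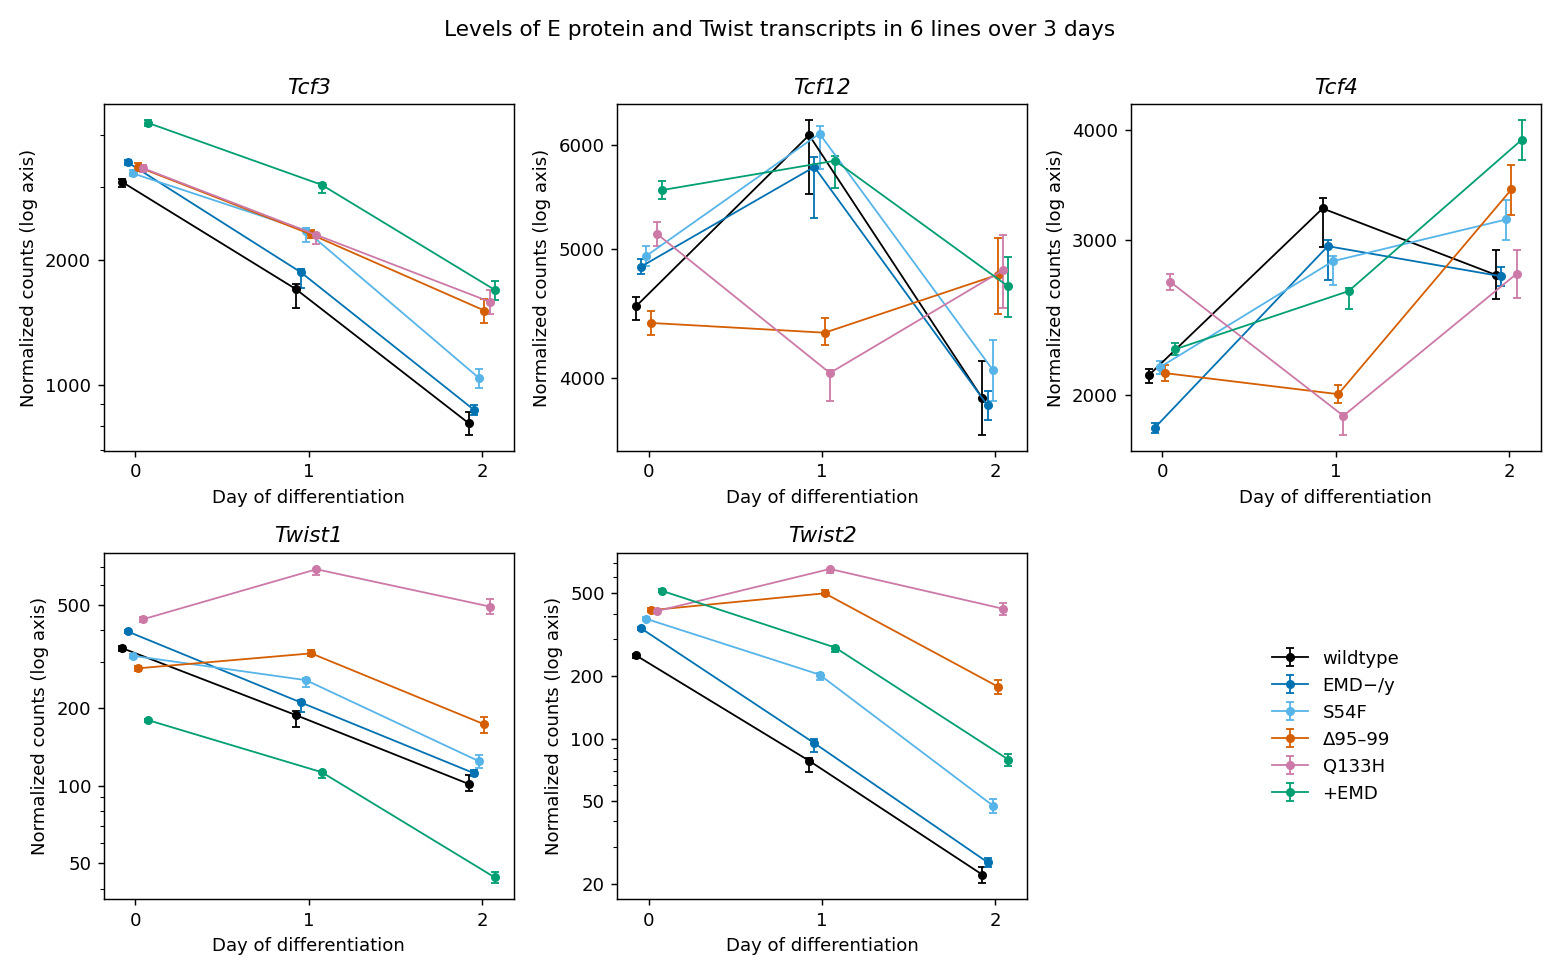
Levels of the E protein genes Tcf3, Tcf12 and Tcf4 and of Twist1 and Twist2 in the 6 lines on days 0, 1 and 2, in normalized counts on log axes with different spans. Points are medians of the authors' group means over tables and bars run from the lowest to the highest table, not replicate error; Q133H is highest for both Twist genes on days 1 and 2.

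The factors that E proteins pair with were examined next, beginning with MyoD's own family. Over all genes, 8.15% of 200900 pairs of a gene and a comparison with wildtype were past 2-fold higher and 8.36% lower, or 16.5% in all. Shares of lists are given in brackets for comparison. Over Myod1, Myf5, Myog and Myf6, pairs past 2-fold from wildtype were 10 higher and 6 lower of 52 at the minimum (30.8%), with list medians from −1.55 to 0.58. Myf5, expressed in committed progenitors, gave log2 ratios of 1.97, 2.65 and 2.94 in Δ95–99 and 2.24, 2.10 and 1.79 in +EMD on days 0, 1 and 2. On day 2 it was past 2-fold higher in at least 4 of 5 lines. Myod1 and Myog, singled out after their values were seen, were lowest in Q133H on day 1, at −1.55 and −3.73. Day 1 in Q133H was thus a group with high Id3 and Twist transcripts and low Myog, the factor of terminal differentiation. On day 2, Myog was −0.17, −0.13, −0.32, −1.27 and −0.10 in EMD -/y, S54F, Δ95–99, Q133H and +EMD.

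Of 7 genes of differentiating muscle, all 7 were past 2-fold lower than wildtype on day 1 in Δ95–99 (list median −3.33) and Q133H (−4.84). On that day 5 were lower in +EMD (−1.14), 1 was higher and 1 lower in S54F (−0.39), and 1 was higher in EMD -/y (−0.06). On day 2 the medians were −0.48 in +EMD, −2.71 in Q133H, −1.26 in Δ95–99, −0.14 in S54F and −0.08 in EMD -/y. All-gene medians were within 0.02 of 0, and 43.8% of the list's pairs over the 3 days were past 2-fold. By list median, EMD -/y, S54F and +EMD were thus closest to wildtype in these genes on day 2, while Id1 was near wildtype in the first of them and above it in the others. Actc1 was nevertheless higher in these 3 lines on that day, at 200630, 223989 and 215543 against 93428 in wildtype. Myh3, embryonic myosin, had log2 ratios of −1.28, −4.15 and −1.84 on days 0, 1 and 2 in Δ95–99 and −2.07, −2.46 and −1.13 in +EMD. On day 1 it was past 2-fold lower in at least 4 of 5 lines. Acta1 and Tnnt3 were also lower on all 3 days in Δ95–99, at −1.5, −3.47 and −1.04 and −1.36, −3.33 and −1.26. Actc1, cardiac actin, was higher on all 3 days in EMD -/y, at 1.58, 1.29 and 1.15.

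Proliferation genes were also higher than wildtype on day 2. Of 9 such genes none was past 2-fold from wildtype on day 0 in any line, with list medians from −0.10 to 0.00. On day 1, 11 of 45 pairs were higher and 0 lower, where 7.72% of the pairs of all genes were higher. On day 2, 39 of 45 pairs were higher and 0 lower, where 10.8% of the pairs of all genes were higher. The difference was thus present after the switch to differentiation medium and most frequent on day 2, and over the 3 days 37.0% of pairs were past 2-fold. The day 2 medians were 3.76 in +EMD, 3.0 in Q133H, 3.66 in Δ95–99, 1.52 in S54F and 1.31 in EMD -/y. The 3 lines with all 9 genes higher, Δ95–99, Q133H and +EMD, were those with the highest Id1 and Id2 on day 2, and the part of cycling cells in the Id levels was not tested. On day 2, Mki67 and Top2a had log2 ratios of 4.94 and 3.66 in Δ95–99, 3.46 and 2.75 in Q133H, and 5.11 and 3.75 in +EMD. Ccna2 and Ccnb1, the cyclins of S phase and mitosis, gave 1.83 and 1.70 in EMD -/y and 4.47 and 4.14 in +EMD. The summed level of the 9 genes was lowest in wildtype on day 2, at 2622, and highest in +EMD on day 0, at 60773. Cells that leave the cycle to form muscle need CDK inhibitors, which were read beside these genes. Among 7 CDK inhibitor genes, pairs past 2-fold were 11 higher and 6 lower of 105 (16.2%), a share near that of all genes, with medians from −0.59 to 0.23. Cdkn1c, which encodes p57, was higher on all 3 days in EMD -/y (4.16, 2.80 and 2.78), S54F (3.43, 2.70 and 2.84) and +EMD (4.05, 2.63 and 3.38). On day 0 it was past 2-fold higher in at least 4 of 5 lines. Cdkn2b was lower on all 3 days in +EMD, at −1.20, −1.42 and −1.58. A line could thus hold high p57 and high proliferation transcripts on the same day, as +EMD did on day 2.

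BMP signalling through Smad proteins is a well known inducer of Id genes, and Grem1, Chrd and Fst encode secreted antagonists of BMP or related ligands. Of 25 genes of the pathway, pairs past 2-fold from wildtype were 59 higher and 47 lower of 322 (32.9%), with list medians from −0.05 to 0.31. Grem1 gave log2 ratios of 1.48, 2.79 and 4.24 on days 0, 1 and 2 in Δ95–99 and 1.15, 1.75 and 2.39 in +EMD. It was past 2-fold higher in at least 4 of 5 lines on days 1 and 2. The antagonists did not go one way. Fst, follistatin, was lower than wildtype on all 3 days in Q133H (−1.31, −2.51 and −1.35) and +EMD (−1.55, −1.81 and −1.37). Chrd, chordin, was lower on all 3 days in Q133H, at −2.10, −6.10 and −5.83. These differences were shared: at least 4 of 5 lines were past 2-fold lower in Chrd on day 1 and in Fst on days 1 and 2. Antagonists were thus found on both sides of wildtype. Bmp4, a ligand singled out after its values were seen, was past 2-fold lower in all 5 lines on all 3 days, with a level of at most 192.

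Among 19 other bHLH genes and E-box repressors, pairs past 2-fold from wildtype were 22 higher and 16 lower of 179 (21.2%, against 16.5% of all genes), with medians from −1.07 to 0.47. Heyl, a Notch target, was lower on all 3 days in Q133H, at −2.0, −7.55 and −5.20. Hey1, another, was higher on all 3 days in Δ95–99, at 2.01, 1.34 and 1.35, and past 2-fold higher in at least 4 of 5 lines on day 0. On day 1 the pairs past 2-fold were 7 higher and 11 lower of 60 (30%, against 17.3% of all genes), of which 1 higher and 6 lower were in Q133H. Hey2 on day 2 was 2.01 in +EMD, 4.41 in Q133H, 2.76 in Δ95–99, 1.12 in S54F and 1.30 in EMD -/y. Of 10 cofactors of E proteins and regulators of Id proteins, pairs past 2-fold were 16 higher and 6 lower of 139 (15.8%), near the share of all genes, with medians from −0.03 to 0.36. Usp1, which removes ubiquitin from Id proteins, was the most abundant of them in 9 of 18 groups. Runx1t1, a corepressor of the ETO family, was higher on all 3 days in EMD -/y (1.74, 1.97 and 1.19) and Q133H (2.40, 2.68 and 1.94). On days 0 and 1 it was past 2-fold higher in at least 4 of 5 lines. Of 14 serum-response genes, pairs past 2-fold were 11 higher and 30 lower of 210 (19.5%), with medians from −0.54 to 0.50. Egr3 was lower on all 3 days in Δ95–99, at −1.45, −1.87 and −1.5, and Egr2 in Q133H, at −1.51, −1.45 and −1.34. On day 1, Atf3 was 1.19, 1.11, 1.20, 1.99 and 0.27 in EMD -/y, S54F, Δ95–99, Q133H and +EMD.

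Marker lists outside muscle differed between lines, and their part in the member levels was not tested. Cspg4, a proteoglycan of pericytes and other progenitors, was higher than wildtype in all 5 lines on all 3 days, at 2.61, 2.43 and 2.73 on days 0, 1 and 2 in EMD -/y and 3.80, 3.34 and 3.38 in +EMD. Rgs5 gave 3.53, 1.98 and 2.05 in EMD -/y and 5.96, 1.08 and 1.71 in S54F. It was past 2-fold higher in at least 4 of 5 lines on days 0 and 2, where wildtype was at only 2.54 and 8.71. Both belong to the smooth muscle and pericyte list, whose level Acta2 sets. Its pairs past 2-fold were 28 higher and 4 lower of 47 (68.1%), with 12 higher and 1 lower of 17 on day 2. Acta2, like Pdgfra, Col3a1 and Cd68 below named after the values were seen, went the other way on day 1 in Δ95–99 (−1.71), Q133H (−2.09) and +EMD (−1.08), and on day 2 in Q133H (−1.78). Col1a1, a collagen made by fibroblasts and myoblasts, was lower on all 3 days in Δ95–99 (−1.52, −2.39 and −1.30), Q133H (−1.95, −3.33 and −2.88) and +EMD (−2.81, −2.47 and −1.95), but on day 2 it was 1.04 in EMD -/y. On day 1 it was past 2-fold lower in at least 4 of 5 lines, while EMD -/y was at 19131 against 9116 in wildtype. In the fibroblast list the pairs past 2-fold were 3 higher and 21 lower of 60 (40%), with 0 higher and 10 lower of 20 on day 0. Most of its differences were thus toward lower levels, and those of day 2 were mixed. Col3a1, its most abundant gene, was past 2-fold in Q133H on day 1 alone (−1.67), and Pdgfra on day 2 was 1.08 in Q133H and −1.13 in Δ95–99. On day 0, Dcn was −3.09 in +EMD, −2.09 in Q133H, −1.68 in Δ95–99, −1.78 in S54F and −1.12 in EMD -/y, and on day 2 it was 1.14 in S54F. Dcn was rare on day 0, at 2.95 in +EMD and 5.80 in Q133H against 25.6 in wildtype, so the size of these ratios is uncertain. The immune markers Itgam and Cd68 differed in direction in Q133H. Over the immune list the pairs past 2-fold were 1 higher and 7 lower of 25 (32%), and over the endothelial list 5 higher and 1 lower of 17 (35.3%). On day 2 all 4 endothelial pairs at the minimum were higher. The Schwann list, with a summed level of at most 24.4, had 3 higher and 0 lower of 9 (33.3%). Those 3 were all of its pairs at the minimum on day 2. Itgam on day 1 was −2.63 in +EMD, −5.32 in Q133H, −5.02 in Δ95–99 and −1.37 in S54F. Its level was then 2.04 in Q133H and 2.51 in Δ95–99 against 79.1 in wildtype, so the size of those ratios is uncertain. Cd68, the most abundant immune marker in 11 of 18 groups, was 0.73, 0.65 and 2.11 in Q133H on days 0, 1 and 2 and −1.13 in +EMD on day 1. The 6 progenitor markers, Pax7 and Myf5 among them, had 21 higher and 10 lower of 90 pairs past 2-fold (34.4%).

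For the 8 members with a level of at least 100 in some group, the genes with the most similar levels over the 18 groups were sought among 11423 genes. The measure was Pearson's r of log2(level + 1). The 18 groups are 6 lines over 3 days, share tables and are not independent samples, so r is a description. The Id3 level followed Id1 (r = 0.97), and Id2 followed Id1 less closely (0.90). The nearest to Id1 were Atoh8 (0.97), Id3 (0.97) and St3gal1 (0.95). For Id2 they were Slc16a6 (0.97), Gtf2a1 (0.96) and Odc1 (0.96), and for Id3 Spp1 (0.97), Uhrf1bp1l (0.97) and Id1 (0.97). Atoh8 is itself a bHLH gene, Odc1 encodes the first enzyme of polyamine synthesis and Spp1 encodes osteopontin. The nearest to Tcf3 were Gjc1 (0.99), Hmgb1 (0.99) and Llgl1 (0.99). Those of Tcf4 were Rbfox2 (0.94), Ube3a (0.90) and Lzts1 (0.89), and those of Tcf12 4931414P19Rik (0.88), Lrrc17 (0.85) and Rasal2 (0.84). The r of Tcf4 was −0.69 to Twist1, −0.56 to Id3 and 0.21 to Tcf12, the last being its single positive value among these members. The nearest to Twist1 were Stat6 (0.96), Loxl3 (0.95) and Slc16a13 (0.95), and to Twist2 Chic1 (0.98), Rbm7 (0.98) and Srd5a3 (0.98).

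Promoter windows of 300 bases from RefSeq (GRCm38.p6) were matched by symbol to 7 of the 10 members, with 9 windows in all, and 3 members, Id1, Tcf4 and Msc, had none. They were searched on both strands for the E-box CANNTG, its form CAGCTG, which CANNTG contains, the CCAAT box, GGCGCC, a core bound by Smad proteins of the BMP branch, and TGACGTCA, the cyclic AMP response element. Of 32851 windows of the same length, 72.3% held CANNTG, 16.3% CAGCTG, 37.4% CCAAT, 11.9% GGCGCC and 1.79% TGACGTCA. The windows of Id2, Id3 and Twist2 are shown because these genes had the largest differences from wildtype among members with a level of at least 100 in some group. Each runs from 250 bases before the annotated gene start to 50 bases into the gene. Id2 held 1 CANNTG, which was CAGCTG, with 3 CCAAT and 1 GGCGCC, Id3 held none of the 5, and Twist2 held 1 CCAAT. Capitals mark the matches, on either strand, and a match is a run of letters and not a bound site. The Id2 window is chr12:25096043-25096342, minus strand, that of Id3 chr4:136143572-136143871, plus strand and that of Twist2 chr1:91801211-91801510, plus strand.
Id2: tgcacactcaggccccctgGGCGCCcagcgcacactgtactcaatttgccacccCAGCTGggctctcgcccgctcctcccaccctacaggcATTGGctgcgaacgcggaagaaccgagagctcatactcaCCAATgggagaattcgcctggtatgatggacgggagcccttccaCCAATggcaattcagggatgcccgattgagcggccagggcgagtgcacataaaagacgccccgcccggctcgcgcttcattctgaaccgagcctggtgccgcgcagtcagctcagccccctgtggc
Id3: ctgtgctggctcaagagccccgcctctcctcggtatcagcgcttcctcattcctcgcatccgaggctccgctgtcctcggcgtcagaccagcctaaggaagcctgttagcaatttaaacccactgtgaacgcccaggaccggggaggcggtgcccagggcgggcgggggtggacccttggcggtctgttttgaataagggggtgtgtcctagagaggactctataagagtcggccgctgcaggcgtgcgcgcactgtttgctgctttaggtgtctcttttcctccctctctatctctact
Twist2: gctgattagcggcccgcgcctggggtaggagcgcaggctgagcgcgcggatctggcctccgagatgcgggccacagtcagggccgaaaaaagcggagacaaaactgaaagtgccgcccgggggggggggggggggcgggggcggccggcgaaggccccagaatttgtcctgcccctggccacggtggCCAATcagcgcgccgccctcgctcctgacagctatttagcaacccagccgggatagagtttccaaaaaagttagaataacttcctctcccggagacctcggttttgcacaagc

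The other windows gave 2 CCAAT and 1 GGCGCC for Id4, 1 CCAAT for Twist1 and 1 CANNTG for Tcf3. Of the 3 windows of Tcf12, all held CANNTG, 1 of them as CAGCTG, and 1 held 2 CCAAT. No window of a member held TGACGTCA.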

How the data were processed

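RNA of 54 samples (18 groups, 3 labelled replicates each) was sequenced and processed by the authors. Per the paper's methods and the submitters' processing notes, reads were filtered with SOAPnuke, aligned with HISAT2 to mm10 and compared with DESeq2; versions were not given. The deposited signal values are the authors' mean normalized counts of a gene in 2 groups per table; 0 columns held values per sample. Further columns hold the authors' fold change, p-value, adjusted p-value and direction, and none was used.

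Here log2 ratios of the 2 means, levels, sums per kilobase, counting intervals (95%) and Pearson's r were computed with Python 3.11.15, numpy 2.4.6, pandas 2.3.3 and scipy 1.17.1, and plotted with matplotlib 3.10.9. The ratio step was tested on simulated data. NCBI gene numbers were matched to symbols for 17824 of 17855 numbers; coordinates are GRCm38.p6.

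The members and lists were chosen with earlier results of these data known. Named genes were all members, Emd, and up to 4 genes of a list past 2-fold in 1 direction on all 3 days of a line or in at least 4 of 5 lines on a day, highest level first, and the 3 genes most similar to each member. Alternatives were other fold thresholds and minimums, a pseudocount, and 2 rescalings. Protein sequences were not used here. Some results are not reported here because they need withheld items.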

Additional observations from a re-analysis of the deposited data

How the results depend on the processing

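No paired analysis was possible because the tables hold group means with no replicate numbers, and leaving out each replicate was not run for the same reason. The number of member ratios past 2-fold against wildtype, 44, was 24 at a threshold of 3-fold. Between days the main number, 34, was 61 at a threshold of 1.5-fold (10 higher and 51 lower at the later day) and 20 at 3-fold. These differences come from the threshold itself. Against wildtype the number was 62 at 1.5-fold, 50 with no minimum, 35 with a minimum of 50, 44 with a pseudocount of 1, 44 with ratios centred on their median and 45 with means divided by their sums. Between days it was 36 with no minimum, 32 with a minimum of 50, 33 with a pseudocount of 1, 33 with centred ratios and 39 with means divided by their sums.

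Of 242 single ratios, all stayed within their counting interval with a pseudocount of 1 and with centring. Dividing by sums moved 81 outside it, changed the sign of 9, the largest of size 0.18, and took 6 across 2-fold. No ratio past 2-fold changed direction under these 3 alternatives. Depth limits the ratios of Id4, and Msc gives none.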
